A study of Mus musculus with 36 samples.

Results

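The imprinted genes H19, Igf2, Igf2r, Meg3, Rian, Dlk1, Peg3, Peg10, Snrpn and Impact, a list of 10 matched by Ensembl identifier, were followed through all 36 RNA-seq libraries of 3 mouse stem cell lines. H19, Meg3 and Rian give noncoding RNAs, and the other 7 code for proteins. All 10 members were found among the 49671 genes of the count table, and all 10 passed the filter on low counts, as did 23501 genes in all. The lines are called Setd1a, Mll2 and Bod1L after their targeted genes. Setd1a and Mll2 (symbol Kmt2b) are methyltransferases of histone H3, and BOD1L protects stalled replication forks. Each line was sampled as knockout (KO) and wild type (WT) in 3 media with 2 cultures per group, 18 groups in all. EpiSC medium held Activin A and FGF2 and was used for cells labelled epiblast-like, 2i medium held LIF, PD0325901 and CT99021 for cells labelled naive, and FCS medium held LIF and serum for cells labelled cycling. Tamoxifen is named for KO cultures only, so drug and genotype cannot be told apart. The 2 cultures of a group come from 1 line, and all 18 groups share 1 estimate of the spread. P-values thus measure the spread between cultures within groups, pooled over lines, media and genotypes, and not the spread between lines. How a line was derived, and whether it is 1 clone, is not given in the sources used here.

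An imprinted gene is transcribed mainly from the copy inherited from 1 parent, under the control of a region whose DNA methylation was set in the egg or sperm. In mouse, H19 is read from the maternal copy and its neighbour Igf2, a fetal growth factor, from the paternal copy, while Igf2r, the receptor that clears IGF2 protein, is maternal. Meg3 and Rian are noncoding RNAs of the maternal copy of the Dlk1-Meg3 domain, whose paternal copy gives Dlk1, a transmembrane protein of the Notch ligand family. Loss of Meg3 and Rian RNA is a well-known variation among cultured mouse pluripotent stem cells. Peg3 (a zinc finger protein), Peg10 (a protein derived from a retrotransposon), Snrpn (a splicing factor subunit) and Impact (a regulator of the kinase GCN2) are read from the paternal copy. The counts used here add both copies of a gene and hold no information on parental origin or on methylation.

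Positions are given on GRCm38. H19 (chromosome 7, 142575529 to 142578143) and Igf2 (142650766 to 142666816) are neighbours on the minus strand. Dlk1 (chromosome 12, 109452823 to 109463336), Meg3 (109541001 to 109571726) and Rian (109603940 to 109661716) follow each other on the plus strand. Igf2r lies on chromosome 17 (12682406 to 12769664, minus strand), Peg3 on chromosome 7 (6703892 to 6730431, minus strand), Peg10 on chromosome 6 (4747306 to 4760517, plus strand) and Snrpn on chromosome 7 (59982495 to 60140219, minus strand). Snrpn shares 27.3% of its exon bases with other genes of the same strand, among them Snurf, which was listed at 0 counts in all 36 libraries, so the level of Snrpn is uncertain. That share was 3.54% for H19 and 3.15% for Rian, with small RNA genes inside them.

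Some members hold miRNAs, in exons of H19 and Meg3 and in introns of Rian and of the protein-coding Igf2. RefSeq (GRCm38.p6) places 13 mature miRNAs within 4 of the members, 5 of them in exons, and the 13 have 13 different seeds. Those of H19 (miR-675, chromosome 7, 142577078 to 142577133) and of Meg3 (miR-770, chromosome 12, 109563710 to 109563765) are shown because H19 and Meg3 are the only exonic hosts. Their levels differ widely between cultures, as given below. Capitals mark the seed, bases 2 to 8. The libraries measure the host transcripts and not the mature miRNAs.
mmu-miR-675-5p: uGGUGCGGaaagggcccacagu
mmu-miR-675-3p: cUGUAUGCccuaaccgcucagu
mmu-miR-770-5p: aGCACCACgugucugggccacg
mmu-miR-770-3p: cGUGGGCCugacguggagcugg

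Windows from 250 bases before to 50 bases after a start site were searched for Igf2, Igf2r, Meg3, Rian, Dlk1, Peg3 and Snrpn, 14 windows in all, and windows of H19, Peg10 and Impact were not used here. Both strands were read for TGCCGC, the letters that the zinc finger protein ZFP57 recognises at methylated imprinting control regions. The letters were in 3 of the 14 windows, 1 each of Meg3, Snrpn and Igf2, against 11.6% of all 32851 windows. The Meg3 match began 190 bases before the start site (window part at chr12:109540746-109540871, plus strand). The Snrpn match began 2 bases before the start site (chr7:60005180-60005261, minus strand), in a window that RefSeq also lists for Snurf. The Igf2 match lay after its start site. Both stretches are shown, with the match in capitals, because the levels of Meg3 and Snrpn followed those of another RNA of their own domain across libraries, as given below. A match is a description of these letters only, since neither methylation nor ZFP57 binding was measured.
Meg3: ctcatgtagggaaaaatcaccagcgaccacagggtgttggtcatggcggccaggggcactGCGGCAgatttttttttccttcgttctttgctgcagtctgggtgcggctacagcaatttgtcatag
Snrpn: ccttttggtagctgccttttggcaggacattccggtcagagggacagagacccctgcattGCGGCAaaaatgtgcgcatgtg

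Libraries held 24.5 to 40.6 M gene counts (median 32.6 M), with 1.98% to 7.71% from mitochondrial genes. Library numbers fell in 2 runs, and all 12 EpiSC libraries and Setd1a KO 2i culture 1 belonged to the later one, so EpiSC medium and number run cannot be told apart. The other 23 libraries, in 2i and FCS medium, belonged to the earlier run. Summed naive markers were lowest in EpiSC medium, with 19.4 to 617 CPM (counts scaled to TMM-adjusted library size) in WT EpiSC cultures. They were 2805 to 3884 CPM in WT 2i and 1115 to 3337 CPM in WT FCS cultures, which overlapped. The Setd1a WT EpiSC cultures held 617 and 458 CPM of them, the other WT EpiSC cultures at most 155 CPM. Summed epiblast markers did not separate EpiSC from FCS medium, with 461 to 1861 CPM in WT EpiSC and 302 to 1738 CPM in WT FCS cultures. They were 162 to 306 CPM in WT 2i cultures. The EpiSC cultures also carried mesenchymal genes. The summed level of 10 feeder or mesenchymal markers (among them collagens and Thy1) was 127 to 7387 CPM in WT EpiSC, 8.57 to 20.4 CPM in WT 2i and 24.4 to 257 CPM in WT FCS cultures. Of the targeted genes, counted over the whole gene, Bod1l was 33.6 to 62.2 CPM in Bod1L KO, against 166 to 345 CPM in Bod1L WT libraries. Setd1a was 37.3 to 43.8 CPM in Setd1a KO, against 40.9 to 58.8 CPM in Setd1a WT libraries, and overlapped. Setd1a shares 51.85% of its exon bases with Gm49388 on the same strand, so its level is uncertain. Kmt2b was 113 to 145 CPM in Mll2 KO, against 139 to 210 CPM in 5 of the Mll2 WT libraries. The library labelled Mll2 WT 2i culture 2 held 89.6 CPM of Kmt2b, under every Mll2 KO library, and where a member's call ends without it, the value without it is given as well. In such bulk cultures fewer cells of a type and less RNA per cell cannot be told apart.

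Per kilobase of exon and over all 36 libraries, Peg10 was the most abundant member and Dlk1 the least. The median over the 36 libraries was 111 CPM per kb for Peg10, 62.6 for Impact, 34.2 for Peg3, 33.9 for Snrpn, 25.3 for Igf2r, 20.2 for H19, 8.95 for Rian, 8.62 for Meg3, 3.44 for Igf2 and 0.606 for Dlk1. In WT 2i cultures Impact, with a mean of 67.7 CPM per kb, lay above Peg10, with 36.9. Peg3 and Snrpn, and Rian and Meg3, were neighbours in this order with overlapping ranges. The spread differed far more between members than their medians did. The highest library exceeded the lowest by 4733-fold for Igf2 (0.349 to 1654 CPM), 1435-fold for H19 (0.524 to 752 CPM), 387-fold for Peg10 (11.9 to 4601 CPM), 245-fold for Meg3 (7.48 to 1835 CPM) and 187-fold for Rian (8.87 to 1658 CPM). Peg3 (16.5-fold), Snrpn (13.6-fold), Igf2r (11.3-fold) and Impact (4.33-fold) stayed within narrower ranges. Dlk1 ran from 0.0343 CPM, 1 count in Mll2 KO FCS culture 1, to 140 CPM in Bod1L WT EpiSC culture 1.

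**Figure D1:**
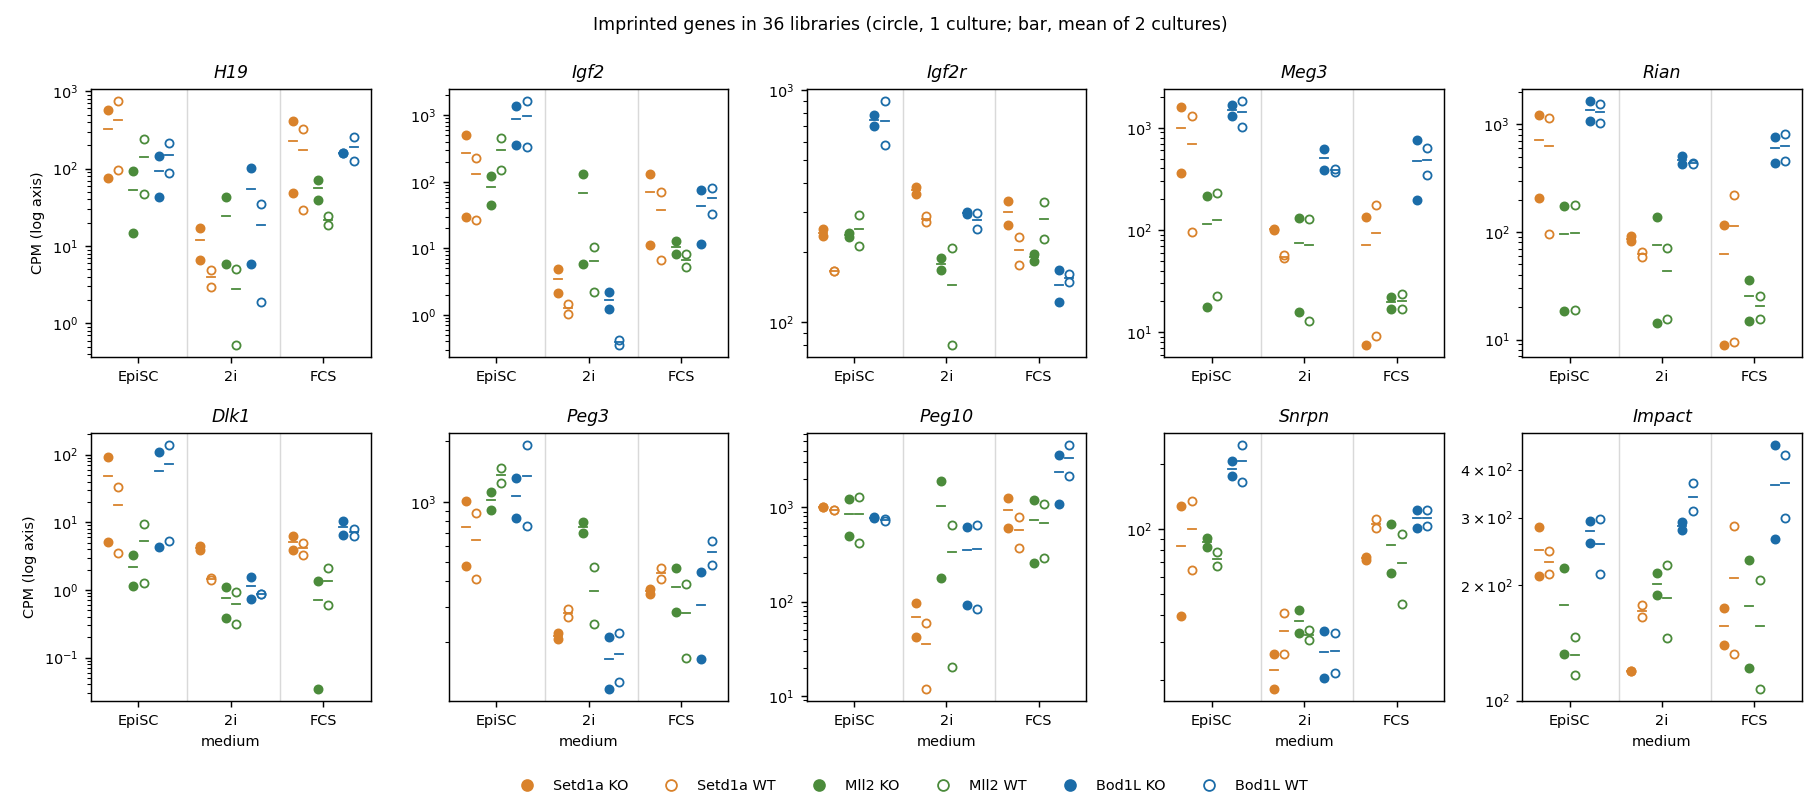
Level of each member in CPM (log axis) by medium, with the Setd1a, Mll2 and Bod1L lines side by side in each medium; filled circles are KO cultures, open circles WT cultures and bars the mean of 2 cultures. Igf2 spans 0.349 to 1654 CPM, whereas Impact stays between 107 and 464 CPM.

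Cultures that carry the same labels differed widely in H19, Igf2, Meg3, Rian, Dlk1 and Peg10. The SD of log2(CPM + 0.5) between the 2 cultures of a group was 1.70 for H19, 1.69 for Meg3, 1.65 for Igf2, 1.60 for Rian, 1.52 for Dlk1 and 1.48 for Peg10, against a median of 0.33 over 12244 genes with a mean of at least 5 CPM. Each of these 6 members exceeded more than 99% of those genes (99.6% to 99.8%). Peg3 (0.56), Snrpn (0.47), Impact (0.40) and Igf2r (0.31) did not, with Igf2r above 45.6% of the genes.

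Meg3, a noncoding RNA of the Dlk1-Meg3 domain, was low in most Mll2 libraries. It was 7.48 to 23.6 CPM in 10 libraries and at least 53.4 CPM in the other 26, the widest gap in its sorted levels. The 10 low libraries were 8 of the 12 Mll2 libraries and the KO and WT culture 2 of Setd1a in FCS. No Bod1L library was among them, and the lowest Bod1L level of Meg3 was 195 CPM. In Mll2 EpiSC cultures Meg3 was 17.6 CPM in KO culture 1 and 213 CPM in KO culture 2, against 22.7 CPM in WT culture 1 and 229 CPM in WT culture 2. In Mll2 2i cultures it was 15.9 and 132 CPM in KO, against 12.8 and 129 CPM in WT. In Mll2 FCS cultures all 4 were low, with 17.0 and 22.2 CPM in KO, against 16.8 and 23.6 CPM in WT. In EpiSC and 2i medium the Mll2 KO and WT cultures of one number thus had similar levels, while cultures 1 and 2 of one group differed.

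Setd1a cultures varied in the same manner, with the number of the low culture turned round between media. In FCS medium Meg3 was 135 CPM in KO culture 1 and 7.48 CPM in KO culture 2, against 177 and 9.19 CPM in WT. In EpiSC medium it was 365 and 1607 CPM in KO, against 95.6 and 1309 CPM in WT. In 2i medium the cultures lay close together, with 103 and 99.6 CPM in KO, against 53.4 and 56.6 CPM in WT. Bod1L cultures ranged from 195 to 1668 CPM in KO and from 349 to 1835 CPM in WT. Rian followed Meg3 library by library: it was 8.87 CPM in Setd1a KO FCS culture 2 against 9.52 CPM in WT, and 18.3 CPM in Mll2 KO EpiSC culture 1 against 18.9 CPM in WT. Pearson's r of Meg3 and Rian on log2(CPM + 0.5) was 0.99 over the 36 libraries, which share lines, media and normalization.

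**Figure D2:**
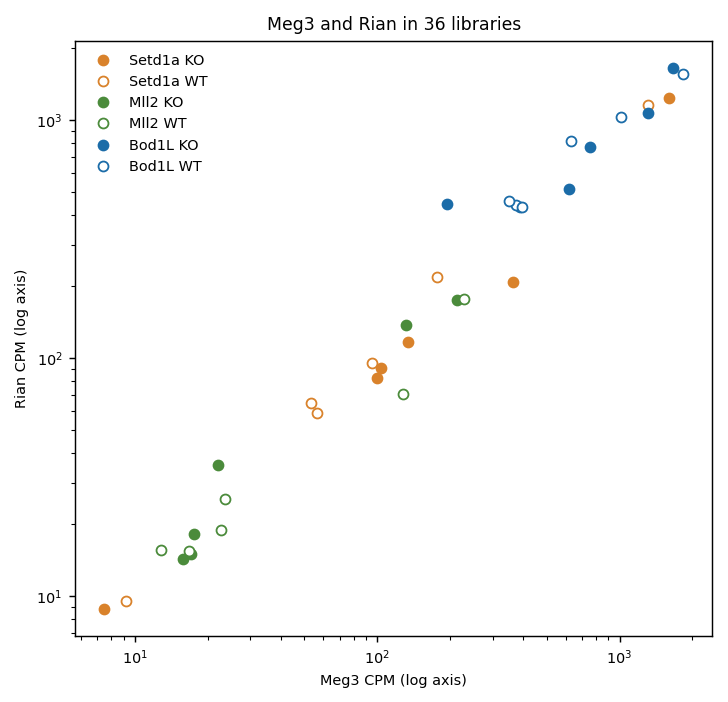
Rian against Meg3 in CPM (both axes log) in 36 libraries; filled circles are KO cultures and open circles WT cultures, coloured by line. The 10 libraries at or below 23.6 CPM of Meg3 belong to the Mll2 and Setd1a lines.

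Dlk1, from the other parental copy of this domain, was low in most libraries, including those with abundant Meg3. It was at or below 10.4 CPM in 32 libraries and at least 33.0 CPM in 4, all in EpiSC medium. These were the Bod1L EpiSC culture 1 pair (111 CPM in KO, 140 CPM in WT) and the Setd1a EpiSC culture 1 pair (93.1 CPM in KO, 33.0 CPM in WT). The culture 2 pairs had 4.37 CPM in Bod1L KO, against 5.29 CPM in WT, and 5.13 CPM in Setd1a KO, against 3.53 CPM in WT. The same 4 libraries had summed mesenchymal markers of 5641 CPM (Bod1L KO), 7387 CPM (Bod1L WT), 4351 CPM (Setd1a KO) and 1236 CPM (Setd1a WT). Of the other 8 EpiSC libraries, the Bod1L culture 2 pair had 1359 CPM in KO, against 1268 CPM in WT, and the remaining 6 had 127 to 201 CPM. The part of these markers in the Dlk1 levels was not tested.

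The culture-to-culture differences were shared by KO and WT cultures of the same number. For each line and medium, culture 2 minus culture 1 was taken in KO and in WT. H19 had the same sign in both genotypes in 9 of 9 combinations of line and medium, as had 4.4% of the 12244 genes. Igf2, Meg3, Rian, Peg3, Peg10 and Impact had the same sign in 8 of 9, and 19.3% of genes had it in 8 or 9. Dlk1 and Snrpn had it in 6, the number at the median of all genes, and Igf2r in 4. H19 in Bod1L 2i cultures is an example, with 103 CPM in KO culture 1 and 5.83 CPM in KO culture 2, against 35.2 and 1.91 CPM in WT. Peg10 in Mll2 2i cultures is another, with 1911 and 177 CPM in KO, against 652 and 20.3 CPM in WT. Over all 12244 genes these differences correlated in each of the 9 combinations (r = 0.36 to 0.87), and KO and WT cultures of the same number were therefore also compared as pairs below.

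**Figure D3:**
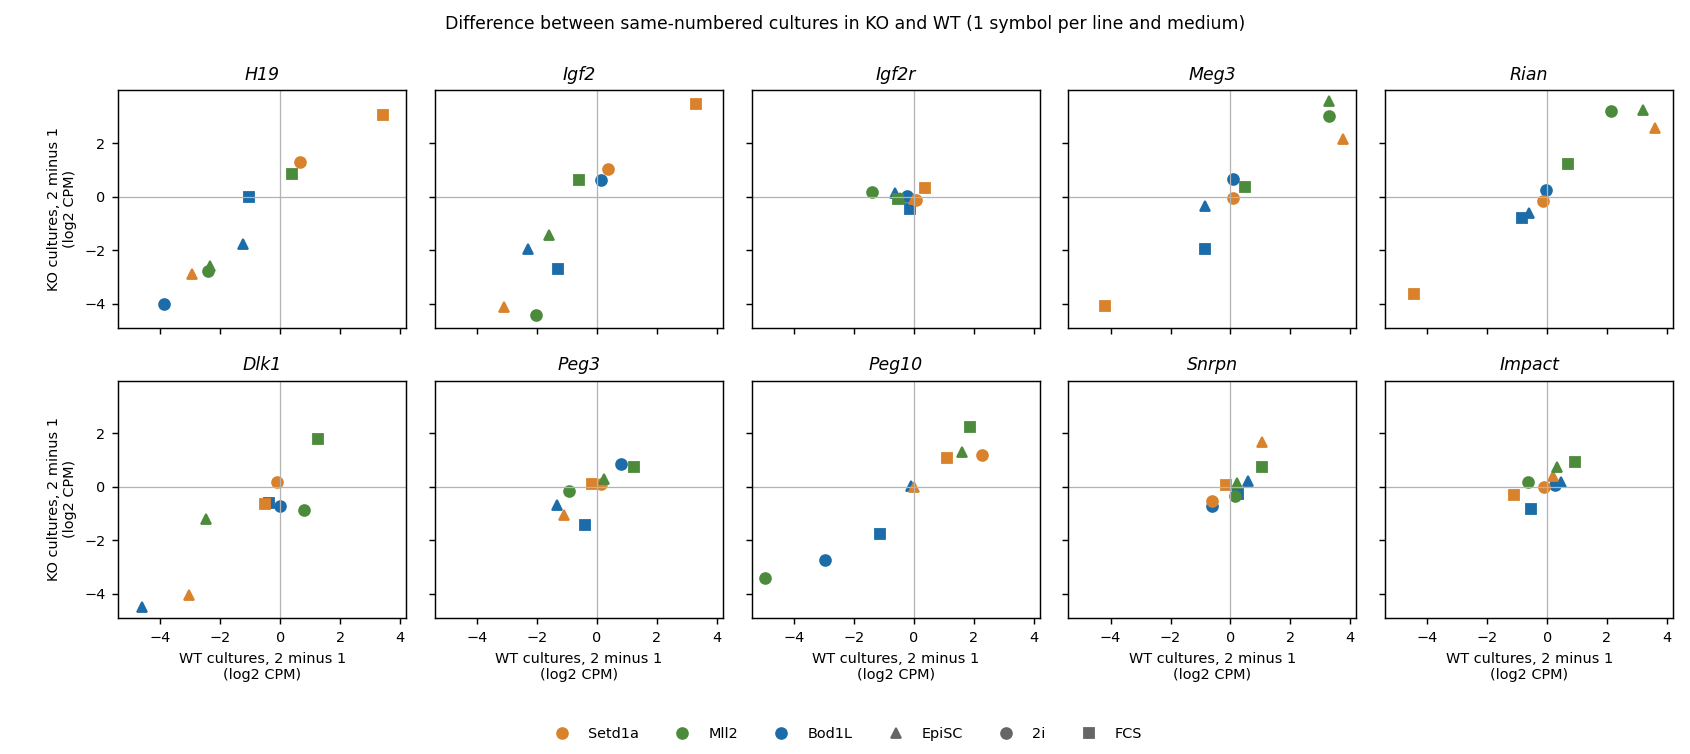
Difference in log2 CPM between culture 2 and culture 1, with KO cultures on the vertical and WT cultures on the horizontal axis, 1 symbol per line (colour) and medium (shape). H19 lies in the lower left or upper right part in all 9 combinations, while Igf2r clusters near 0.

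WT cultures in EpiSC medium were compared with WT cultures in 2i medium over the 3 lines, which asks how the members differ between primed and naive cells. Of the 10 members 9 rose in EpiSC medium and none fell, where 52.5% of all tested genes were called, 25.1% higher and 27.4% lower. The members' median log2 fold change was 2.08, against -0.07 for all genes. All p-values of single genes are Benjamini-Hochberg adjusted values of edgeR's quasi-likelihood F test over all 23501 genes, called below 0.05, and fold changes are given ± SE.

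Igf2, the growth factor, rose most. Its lowest, median and highest WT levels were 26.6, 283 and 1654 CPM in EpiSC medium, against 0.349, 1.25 and 10.6 CPM in 2i medium, without overlap. The log2 fold change was 7.86 ± 1.09 (adjusted p = 3.48e-06). H19, its neighbour, had 47.2, 154 and 752 CPM in EpiSC medium, against 0.524, 3.94 and 35.2 CPM in 2i medium (5.15 ± 1.00; adjusted p = 1.69e-04). Igf2os, an antisense RNA at Igf2, rose by 4.80 (adjusted p = 9.00e-05). Igf2 in EpiSC cultures was highest where the mesenchymal markers were highest, with 1654 CPM in Bod1L WT culture 1 (7387 CPM of those markers), yet the Mll2 WT cultures had 456 and 150 CPM of Igf2 with 127 and 143 CPM of the markers. The Setd1a WT cultures had 232 and 26.6 CPM of Igf2, with 1236 and 173 CPM of the markers. The part of these markers in the rise was not tested.

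Igf2r rose little over the 3 lines, by 0.50 ± 0.17 (adjusted p = 0.0194), and the lines differed. That call was lost without culture 2 of the Bod1L or the Mll2 WT 2i cultures, or without culture 1 of the Bod1L or the Mll2 WT EpiSC cultures (adjusted p up to 0.0860). Its levels were 900 and 578 CPM in Bod1L WT EpiSC cultures, against 297 and 253 CPM in Bod1L WT 2i cultures (1.43 ± 0.30; adjusted p = 0.00115). They were 166 and 166 CPM in Setd1a WT EpiSC cultures, against 269 and 286 CPM in Setd1a WT 2i cultures, a lower level that passed no test. In Mll2 WT cultures they were 290 and 213 CPM in EpiSC medium, against 208 and 79.6 CPM in 2i medium (0.81 ± 0.30; adjusted p = 0.0373). Without the library labelled Mll2 WT 2i culture 2 the Mll2 value was 0.26 (adjusted p = 0.507), and without Mll2 WT EpiSC culture 1 it was 0.57 (adjusted p = 0.250). Igf2r was the 1 member whose medium effect differed between WT lines (adjusted p = 8.61e-04; 3.89% of genes were called), also without the library labelled Mll2 WT 2i culture 2 (adjusted p = 6.49e-05). Airn, the antisense noncoding RNA of this domain, rose by 3.74 (adjusted p = 2.76e-04), to 0.873 to 11.5 CPM in EpiSC medium, against 0.242 to 0.807 CPM in 2i medium.

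Of the Dlk1-Meg3 domain, Meg3 rose by 2.13 ± 0.83 (adjusted p = 0.0352), Rian by 2.03 ± 0.79 (adjusted p = 0.0349) and Dlk1 by 4.37 ± 0.92 (adjusted p = 3.99e-04). WT levels of Meg3 were 22.7, 623 and 1835 CPM (lowest, median, highest) in EpiSC medium, against 12.8, 92.5 and 398 CPM in 2i medium, and overlapped. The calls of Meg3 and Rian held without any 1 of 4 libraries (Mll2 WT 2i culture 2, Bod1L WT EpiSC culture 2, Mll2 WT EpiSC culture 1, Setd1a WT EpiSC culture 1) and were lost without any 1 of the other 8, with adjusted p up to 0.242. Dlk1 had 1.28, 7.37 and 140 CPM in EpiSC medium, against 0.317, 0.901 and 1.53 CPM in 2i medium, and its call held without each single library. Begain in the same domain rose by 1.01 (adjusted p = 0.0277), while Rtl1 (2.19), Mirg (1.79) and Dio3 (-1.15) passed no test.

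Of the paternally read members outside these domains, Peg3, Snrpn and Peg10 rose and Impact passed no test. Peg3 had 413, 1061 and 1924 CPM in EpiSC medium, against 126, 256 and 473 CPM in 2i medium (2.03 ± 0.31; adjusted p = 9.91e-06). Snrpn had 64.5, 107 and 246 CPM in EpiSC medium, against 21.4, 31.8 and 40.8 CPM in 2i medium, without overlap (1.89 ± 0.26; adjusted p = 2.99e-06). Peg10 had 418, 846 and 1278 CPM in EpiSC medium, against 11.9, 71.5 and 652 CPM in 2i medium (2.35 ± 0.74; adjusted p = 0.0105). Impact (chromosome 18, 12972252 to 12992948, plus strand) had 116, 214 and 297 CPM in EpiSC medium, against 145, 202 and 369 CPM in 2i medium, and its log2 fold change of -0.16 ± 0.22 passed no test (adjusted p = 0.555). Impact was the member with the smallest range over media.

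**Figure D4:**
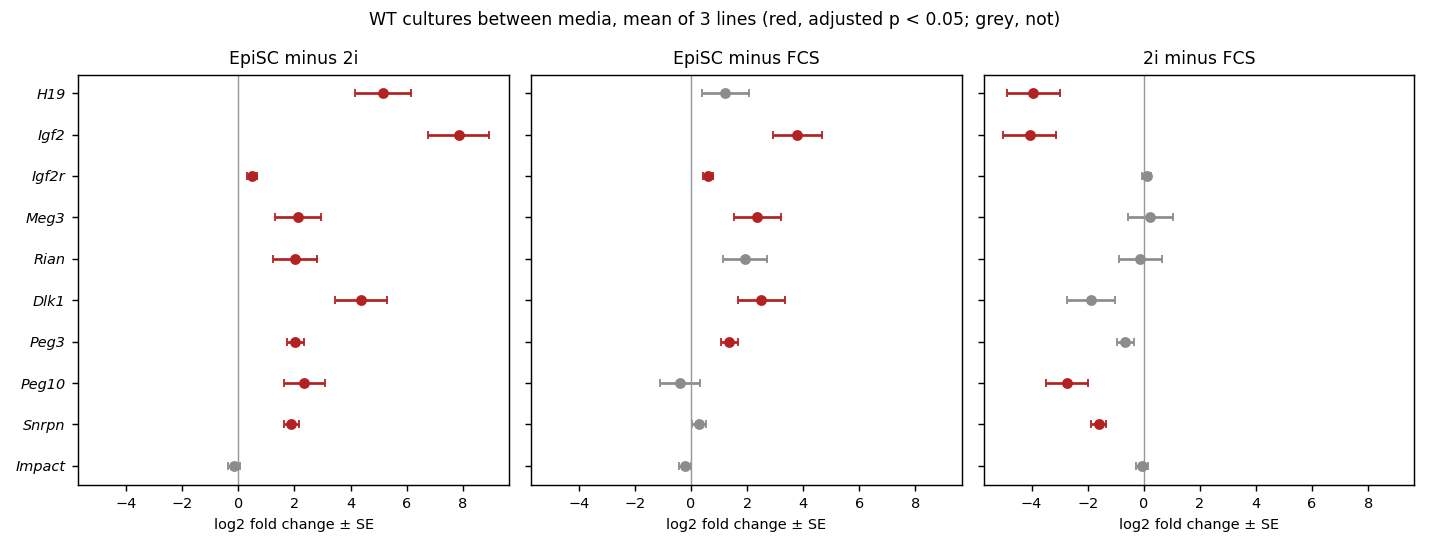
Log2 fold change ± SE of each member between WT cultures in 2 media, as the mean over the 3 lines, for EpiSC minus 2i, EpiSC minus FCS and 2i minus FCS medium. Red points passed the test (adjusted p below 0.05): 9 of 10 in EpiSC minus 2i, all above 0, 5 in EpiSC minus FCS and 4 in 2i minus FCS, all below 0.

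Between EpiSC and FCS medium 5 of the 10 members rose and none fell in WT cultures, where 41% of all tested genes were called, 20.4% higher and 20.6% lower. Igf2 rose by 3.79 ± 0.89 (adjusted p = 0.00163), with levels that ran from 26.6 to 1654 CPM in EpiSC medium, against 5.20 to 82.1 CPM in FCS medium. Peg3 rose by 1.37 ± 0.30 (adjusted p = 9.66e-04) and Igf2r by 0.60 ± 0.17 (adjusted p = 0.00803). The Igf2r average rested on the Bod1L line, since the log2 fold change was -0.30 in Setd1a WT (adjusted p = 0.615) and -0.15 in Mll2 WT cultures (adjusted p = 0.763). In Bod1L WT cultures alone Igf2r was the called member (2.25 ± 0.31; adjusted p = 4.28e-05), where 21.7% of genes were called, 9.68% higher and 12% lower, with 900 and 578 CPM in EpiSC medium, against 161 and 150 CPM in FCS medium. In Mll2 WT cultures Igf2 (5.51) and Peg3 (2.29) rose, where 22.4% of genes were called, 11.2% in each direction. Without 1 library Igf2 stayed called only without EpiSC culture 2 (adjusted p up to 0.141), and Peg3 lost its call only without FCS culture 1 (adjusted p = 0.0780). In Setd1a WT cultures no member was called, where 2.83% of genes were called, 2.05% higher and 0.779% lower. There 0 members had an unadjusted p below 0.05 and DESeq2 called 0, while a fit with no filter on low counts called 5. Meg3 (2.37 ± 0.84; adjusted p = 0.0274) and Dlk1 (2.50 ± 0.84; adjusted p = 0.0199) were called as well, but 7 and 6 of the 12 fits without 1 library ended the call. Meg3 held without Bod1L WT FCS culture 1, Setd1a WT FCS culture 1, Bod1L WT EpiSC culture 2 or culture 1 of the Mll2 and Setd1a WT EpiSC cultures, and Dlk1 without culture 1 of the Bod1L or Setd1a WT FCS cultures, Mll2 WT FCS culture 2 or culture 2 of any line's WT EpiSC cultures. Rian (1.91; adjusted p = 0.0562), H19 (1.22; 0.264), Snrpn (0.28; 0.397), Peg10 (-0.40; 0.696) and Impact (-0.21; 0.460) passed no test. With the WT numbers as a block, Meg3 (adjusted p = 0.0811) and Dlk1 (0.0613) lost their calls over the lines.

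Between 2i and FCS medium 4 members fell and none rose in WT cultures, where 27.8% of all tested genes were called, 13.3% lower and 14.5% higher. H19 had 0.524 to 35.2 CPM in 2i medium, against 18.6 to 323 CPM in FCS medium (-3.94 ± 0.94; adjusted p = 0.00303). Igf2 had 0.349 to 10.6 CPM in 2i medium, against 5.20 to 82.1 CPM in FCS medium (-4.07 ± 0.95; adjusted p = 0.00240). Both overlapped between the media, H19 through Bod1L WT 2i culture 1 and Igf2 through Mll2 WT 2i culture 1. Peg10 fell by 2.75 on the log2 scale (SE 0.75; adjusted p = 0.00792), with 11.9, 71.5 and 652 CPM in 2i medium, against 292, 938 and 4601 CPM in FCS medium. Snrpn fell by 1.61 (SE 0.26; adjusted p = 6.04e-05), to 21.4 to 40.8 CPM in 2i medium, against 44.9 to 122 CPM in FCS medium, without overlap. These 4 calls held without each single library. Meg3 (0.24), Rian (-0.12) and Impact (-0.05) lay near 0. The Igf2r average of 0.10 joined lines of opposite sign, with 0.82 in Bod1L (adjusted p = 0.0811), 0.44 in Setd1a (adjusted p = 0.450) and -0.96 in Mll2 (adjusted p = 0.0401). Among the others Dlk1 (-1.87; adjusted p = 0.110) and Peg3 (-0.66; adjusted p = 0.104) passed no test.

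Within a single line, with 2 cultures against 2, fewer members passed. Between EpiSC and 2i medium 5 rose in Bod1L WT cultures (Igf2, Igf2r, Dlk1, Peg3 and Snrpn), where 31.8% of genes were called, 15.2% higher and 16.5% lower. In Setd1a WT cultures 4 rose (H19, Igf2, Peg10 and Snrpn), where 12.9% of genes were called, 7.3% higher and 5.6% lower. In Mll2 WT cultures 5 rose (H19, Igf2, Igf2r, Peg3 and Snrpn), where 38.9% of genes were called, 18% higher and 20.9% lower. Igf2 and Snrpn were called in each line with all libraries, but these calls held without each single library in Bod1L only, as did those of Igf2r and Peg3 there. Dlk1 in Bod1L stayed called only without EpiSC culture 2. In Setd1a H19 and Igf2 stayed called only without EpiSC culture 2, Snrpn only without EpiSC culture 1 and Peg10 in no such fit (adjusted p up to 0.314). In Mll2 Snrpn lost its call without each single library (adjusted p up to 0.138), and H19 and Igf2 lost theirs without EpiSC culture 1. Without the library labelled Mll2 WT 2i culture 2 none of the 5 was called, with 4.84 for H19 (adjusted p = 0.134), 4.83 for Igf2 (adjusted p = 0.120) and 1.51 for Peg3 (adjusted p = 0.105). With the WT numbers as a block, which correlated across media in the Setd1a line, Peg10 there had adjusted p = 0.0562. Igf2 had 1654 and 333 CPM in Bod1L WT EpiSC cultures, against 0.349 and 0.424 CPM in Bod1L WT 2i cultures, where it rested on 14 counts in culture 1. Between 2i and FCS medium Igf2 (-7.21), Peg3 (-1.69) and Snrpn (-2.05) fell in Bod1L WT cultures, where 11.4% of genes were called, 6.22% lower and 5.2% higher. Peg3 lost that call without each single library (adjusted p up to 0.288), Igf2 kept it only without FCS culture 2 (up to 0.135), and Snrpn lost it without 2i culture 2 (0.0752). Snrpn (-1.66) fell in Setd1a WT cultures, where 6.21% were called, 2.35% lower and 3.86% higher. This call was lost without each single library (adjusted p up to 0.263) and with the WT numbers as a block (adjusted p = 0.0550). Igf2r (-0.96) fell in Mll2 WT cultures, where 12.2% were called, 5.86% lower and 6.37% higher, and without the library labelled Mll2 WT 2i culture 2 this was -0.41 (adjusted p = 0.445). It also lost the call without either Mll2 WT FCS culture (adjusted p = 0.316 and 0.0556). Apart from Igf2r, no member's medium effect passed the test of a difference between lines, with adjusted p from 0.202 for Igf2 and 0.235 for Peg3 to 0.842 for Rian.

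Other genes of imprinted domains moved in both directions. Of 64 such genes 59 were tested, and between EpiSC and 2i medium 29 rose and 11 fell in WT cultures, where 25.1% of all genes were higher and 27.4% lower, with a median log2 fold change of 0.61, against -0.07 for all genes. The largest called changes were in Zfp264 (-9.82), Dcn (9.81), Calcr (6.30) and Zim3 (-6.08). Zfp264 and Zim3, of the Peg3 domain, are annotated as a pseudogene and an antisense gene. Dcn codes for the matrix proteoglycan decorin, and Calcr is the calcitonin receptor gene near Peg10. In the Snrpn domain Magel2 rose by 4.92, Snhg14 by 2.13, Ndn by 1.98, Atp10a by 1.95 and Ube3a by 0.36, while Mkrn3 (0.27) and Peg12 (0.56) passed no test. In the Peg10 domain Sgce (3.02), Asb4 (3.36), Pon2 (1.89) and Ppp1r9a (1.15) rose, Pon3 fell by 1.98 and Tfpi2 (2.42) passed no test. In the Peg3 domain Usp29 (1.36) and Zim1 (1.54) rose, so that Peg3 and its neighbours did not all move one way. Osbpl1a, next to Impact, fell by 1.01, and Slc22a3 (0.56) near Igf2r passed no test. Between EpiSC and FCS medium 12 of the 59 rose and 11 fell (20.4% and 20.6% of all genes), again with Zfp264 (-7.50), Dcn (5.13), Zim3 (-3.76) and Igf2os (3.22) as the largest called changes. In that comparison Sgce (2.30), Asb4 (2.67), Pon2 (1.12), Usp29 (0.84) and Airn (2.49) rose, and the other tested genes of the members' domains passed no test. Between 2i and FCS medium 8 rose and 12 fell (14.5% and 13.3% of all genes), led by Calcr (-5.83), Nnat (-5.47), Magel2 (-4.34) and Plagl1 (3.66). In the members' domains Zim1 (-2.05), Atp10a (-1.69) and Snhg14 (-1.42) also fell, and Zim3 (2.33), Zfp264 (2.32) and Osbpl1a (0.85) rose.

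Genes on a list of 18 imprint regulators, which also holds the demethylase genes Tet1, Tet2 and Tet3, fell more often than they rose in EpiSC medium. Against 2i medium 4 of the 18 rose and 12 fell, where 25.1% of all genes were higher and 27.4% lower. The median log2 fold change of the list was -0.75. The largest changes were in Dppa3 (-6.08), which protects maternal methylation in the zygote, the demethylase gene Tet2 (-2.83), the cofactor gene Dnmt3l (-2.62) and the methyltransferase gene Dnmt3b (2.05). Against FCS medium 1 rose and 11 fell (20.4% and 20.6% of all genes), with a median of -0.58. The largest were Dnmt3l (-7.97), Dppa3 (-5.81), Tet1 (-1.86) and Tet2 (-1.55). Zfp57 averaged 135 ± 38.4 CPM in WT EpiSC cultures and 362 ± 131 CPM in WT FCS cultures (SD, n = 6 each), a log2 fold change of -1.41. In 2i against FCS medium 2 of the 18 rose and 4 fell (14.5% and 13.3% of all genes), with a median of -0.04. The largest were Dnmt3l (-5.36), Dnmt3b (-2.89), Tet2 (1.29) and Dnmt3a (-1.0). Cell type markers moved with the media as well: between EpiSC and 2i medium all 10 naive markers fell, 11 of 12 epiblast markers rose, all 10 mesenchymal markers rose, 6 of 9 tested primitive endoderm markers rose and 2 fell, 3 of 8 tested trophoblast markers rose and 1 fell, and 3 of 6 neural markers rose. Afp of primitive endoderm and Tpbpa and Prl3d1 of trophoblast were below 0.4 CPM in every library. The part of these cell types in the members' changes was not tested.

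The WT cultures of the 3 lines were then compared with each other over the media. Meg3 (adjusted p = 0.0143), Rian (0.00495), Igf2r (0.0300) and Impact (0.00602) differed among lines in edgeR's F test, 4 of 10 members, where 14.7% of genes were called. Mll2 against Bod1L WT cultures gave 3 members lower and none higher, where 4.65% of genes were called, 2.17% lower and 2.48% higher. Rian was 15.4, 22.3 and 177 CPM (lowest, median, highest) in Mll2 WT cultures, against 432, 638 and 1560 CPM in Bod1L WT cultures, without overlap (-4.01 ± 0.86; adjusted p = 0.00666). Meg3 was 12.8, 23.2 and 229 CPM in Mll2 WT cultures, against 349, 513 and 1835 CPM in Bod1L WT cultures, without overlap (-3.51 ± 0.88; adjusted p = 0.0208). The Meg3 call was lost without Mll2 WT 2i culture 1, FCS culture 1, FCS culture 2 or EpiSC culture 1 (adjusted p up to 0.0868), whereas that of Rian held without each single library. Mirg, a noncoding RNA of the same domain, fell by 3.54 (adjusted p = 0.0259), while Begain (-0.64), Rtl1 (-0.02) and Dio3 (1.00) passed no test.

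Impact, which lies on another chromosome, was 107, 146 and 225 CPM in Mll2 WT cultures, against 214, 305 and 438 CPM in Bod1L WT cultures (-1.02 ± 0.22; adjusted p = 0.00634). With the WT numbers as a block it was not called (adjusted p = 0.0555). Setd1a against Bod1L WT cultures gave 2 members lower, where 12.3% of genes were called, 4.66% lower and 7.65% higher: Igf2r (-0.58 ± 0.17; adjusted p = 0.0294) and Impact (-0.65 ± 0.22; adjusted p = 0.0499). With the WT numbers as a block neither was called (adjusted p = 0.131 for Igf2r and 0.111 for Impact). Each was called in 3 of the 12 fits without 1 library: Igf2r without Bod1L WT 2i culture 2, Setd1a WT FCS culture 2 or Bod1L WT EpiSC culture 2, and Impact without Bod1L WT FCS culture 2, Setd1a WT FCS culture 1 or Bod1L WT EpiSC culture 1. Across those 12 fits the number of members called was 0 to 3. Meg3 (-2.07; adjusted p = 0.108) and Rian (-2.11; adjusted p = 0.0846) passed no test there. No member differed between Setd1a and Mll2 WT cultures by edgeR, where 6.39% of genes were called, 4.31% higher and 2.09% lower. In that comparison 1 member had an unadjusted p below 0.05, DESeq2 called none and a fit with no filter on low counts called 5. Over the 59 other imprinted-domain genes, 6 were higher and 6 lower in Setd1a than in Bod1L (largest Cdkn1c 3.59, Nnat 3.22, Pon2 -2.40 and Phlda2 2.20), 6 higher and 3 lower in Mll2 than in Bod1L (Cdkn1c 4.04, Mirg -3.54, Grb10 2.97 and Nnat 2.53), and 2 higher and 4 lower in Setd1a than in Mll2 (Kcnq1 -3.69, Ampd3 1.51, Grb10 -1.35 and Atp10a 1.24). Sgce, near Peg10, was lower in Setd1a than in Bod1L (-1.81), and Pon2 was lower in Mll2 than in Bod1L (-1.57). Of the regulators, Dnmt3l (5.13), Dppa3 (3.09) and Dnmt3a (1.31) were higher in Setd1a than in Bod1L, and Dnmt3l (2.85), Dppa3 (2.60), Dnmt3a (1.71) and Kdm1b (0.53) higher in Setd1a than in Mll2. No regulator was called between Mll2 and Bod1L, where 3 had an unadjusted p below 0.05.

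KO was set against WT in each line, over the media and in each medium. Without pairing, edgeR called 0 of the 10 members in all 12 comparisons, where 8.85% of genes were called for Setd1a, 0.694% for Mll2 and 2.03% for Bod1L over the media. In single media 1.54% (EpiSC), 1.69% (2i) and 0.762% (FCS) of genes were called for Setd1a, 0% (EpiSC), 0.464% (2i) and 0% (FCS) for Mll2, and 0.438% (EpiSC), 0.374% (2i) and 0.191% (FCS) for Bod1L. At an unadjusted p below 0.05 there was 1 member for Setd1a over the media (Igf2r) and 1 for Mll2 in 2i medium, and none in the other 10 comparisons. DESeq2 called 1 member in all, Igf2r for Setd1a over the media. A fit with no filter on low counts called members in several of these comparisons, as given at the end. The SE of the unpaired fold changes of H19, Igf2, Meg3 and Peg10 was 0.70 to 0.87 over the media, so that differences of about 1 on the log2 scale could not be told from the spread between cultures. Compared as pairs of the same number, which are inferred from these data and not stated in the labels, several members passed, and those values are given with the unpaired ones. In a single medium, a fit without 1 pair leaves 1 KO against 1 WT culture. Its error then comes from the pairs of other lines and media, so that such calls describe the 1 pair left.

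H19 differed in direction between media. It was higher in KO in 6 of 6 pairs in 2i medium, in 5 of 6 pairs in FCS medium and in 0 of 6 pairs in EpiSC medium. In Mll2 2i cultures H19 was 43.4 and 5.85 CPM in KO, against 4.99 and 0.524 CPM in WT, where WT culture 2 held 17 counts. The unpaired log2 fold change was 3.15 ± 1.60 (adjusted p = 0.513), and the paired one 3.24 ± 0.27 (adjusted p = 2.52e-06). It stayed called without either pair (3.12 and 3.47), and so also without the library labelled Mll2 WT 2i culture 2. In Mll2 EpiSC cultures H19 was 92.8 and 14.8 CPM in KO, against 240 and 47.2 CPM in WT (paired -1.52 ± 0.23; adjusted p = 0.00146; unpaired adjusted p = 1.00). In Mll2 FCS cultures it was 39.9 and 72.0 CPM in KO, against 18.6 and 24.7 CPM in WT (paired 1.32 ± 0.23; adjusted p = 0.00806; unpaired adjusted p = 1.00). In pairs 0.825% of genes were called for Mll2 in FCS medium (0.034% higher, 0.791% lower) and 2.16% in EpiSC medium (0.587% higher, 1.57% lower). Without 1 pair H19 lost the FCS call in both cases (adjusted p up to 0.234), and in EpiSC medium it stayed called without pair 1 (-1.67; adjusted p = 0.0443) and not without pair 2 (adjusted p = 0.0759). The medium dependence of the paired H19 effect was called in the Mll2 line (adjusted p = 6.62e-06; 4.47e-05 without 2i pair 2), where 1.61% of genes were called, and had no call without pairing (adjusted p = 1.00).

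The other lines also had higher H19 in KO in each 2i pair and lower H19 in KO in each EpiSC pair. In Setd1a 2i cultures H19 was 6.65 and 17.0 CPM in KO, against 2.96 and 4.91 CPM in WT (paired adjusted p = 6.26e-04; unpaired adjusted p = 0.722), and the paired log2 fold change was 1.21 and 1.80 without 1 pair, called for 1 of the 2. In Setd1a EpiSC cultures it was 568 and 75.4 CPM in KO, against 752 and 96.3 CPM in WT, which passed no test. In FCS medium it was 48.4 and 409 CPM in Setd1a KO, against 29.2 and 323 CPM in WT, and 158 and 157 CPM in Bod1L KO, against 257 and 125 CPM in WT, so that the Bod1L pairs went both ways. In Bod1L 2i cultures it was 103 and 5.83 CPM in KO, against 35.2 and 1.91 CPM in WT (paired 1.57 ± 0.24; adjusted p = 9.63e-04; unpaired adjusted p = 1.00), and this call was lost without either pair. In pairs 12.4% of genes were called for Setd1a in 2i medium (5.98% higher, 6.4% lower) and 2.8% for Bod1L (0.996% higher, 1.8% lower). The test of a paired effect that differs between media gave adjusted p = 0.0536 for Setd1a and 0.0610 for Bod1L.

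**Figure D5:**
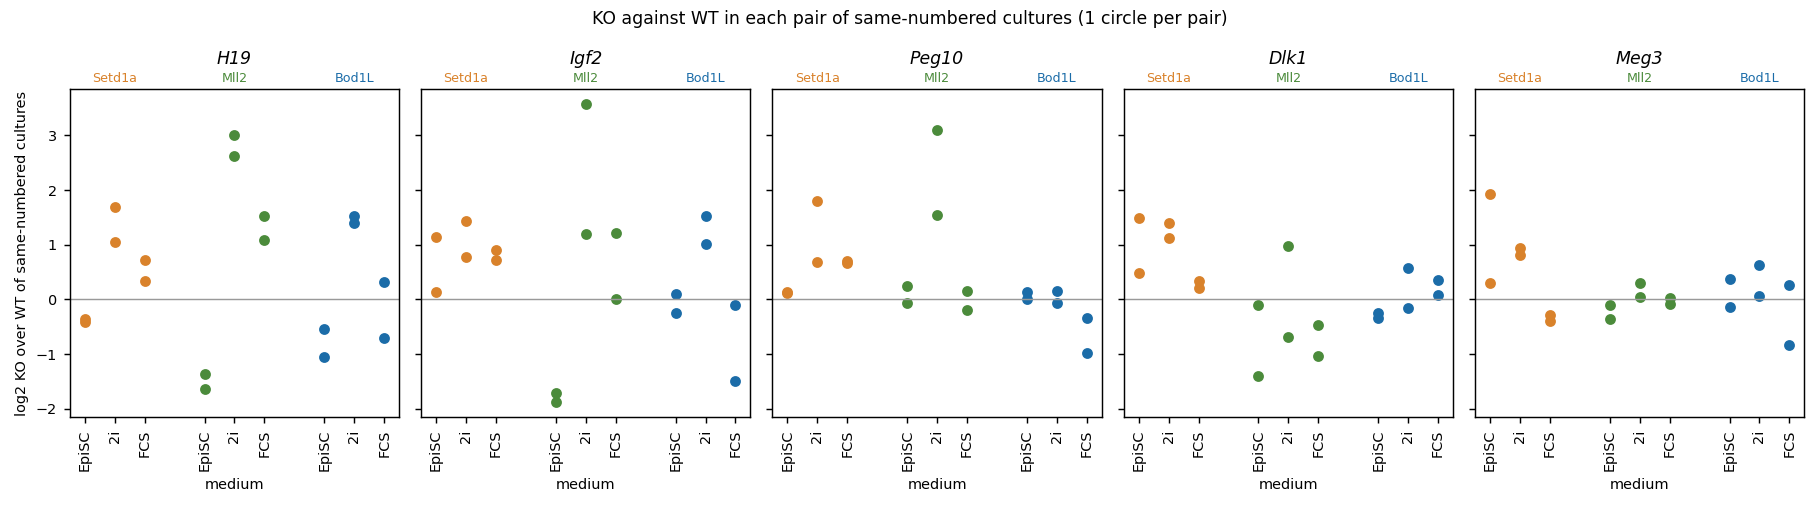
Log2 ratio of KO to WT in each pair of same-numbered cultures (1 circle per pair) for 5 members, by line and medium. H19 is above 0 in all 6 pairs in 2i medium and below 0 in all 6 in EpiSC medium.

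Igf2 was also higher in KO in 6 of 6 pairs in 2i medium, at low levels. In Mll2 2i cultures it was 132 and 5.72 CPM in KO, against 10.6 and 2.22 CPM in WT (paired 2.66 ± 0.46; adjusted p = 0.00122; unpaired 3.42 ± 1.52; adjusted p = 0.444). It stayed called without pair 2 (3.63; adjusted p = 2.47e-04) and not without pair 1 (adjusted p = 0.0611). In Mll2 EpiSC cultures Igf2 was 124 and 45.4 CPM in KO, against 456 and 150 CPM in WT (paired -1.80 ± 0.39; adjusted p = 0.0196; unpaired adjusted p = 1.00), a call that was lost without either pair. The paired effect differed between media in the Mll2 line (adjusted p = 0.00215), as did that of Peg10 (adjusted p = 0.00940). Without 2i pair 2, which holds the library labelled Mll2 WT 2i culture 2, these were 2.98e-04 for Igf2 and 0.0857 for Peg10, which was then no longer called. Peg10 was 1911 and 177 CPM in Mll2 KO 2i cultures, against 652 and 20.3 CPM in WT (paired 2.33 ± 0.31; adjusted p = 1.38e-04; unpaired adjusted p = 0.693), and held without either pair. Peg3 was 792 and 702 CPM in Mll2 KO 2i cultures, against 473 and 245 CPM in WT (paired 1.13 ± 0.24; adjusted p = 0.00729; unpaired adjusted p = 0.492), but the call rested on pair 2: it was 1.52 without pair 1 (adjusted p = 0.00354) and 0.74 without pair 2 (adjusted p = 0.293). In pairs 4 of 10 members thus rose in Mll2 KO 2i cultures, and 3 without pair 2 (H19, Igf2 and Peg10), where 6.96% of genes were called, 2.74% higher and 4.22% lower. Summed trophoblast markers in these cultures were 162 and 46.5 CPM in KO, against 69.8 and 26.5 CPM in WT, and 3 of the 8 tested rose in pairs (median log2 fold change of the list 1.60). Summed mesenchymal markers were 19.5 and 8.59 CPM in KO, against 13.3 and 8.57 CPM in WT, and 2 of 10 rose. The part of these markers in the members' changes was not tested. Averaged over media, H19 (paired 1.01; adjusted p = 1.21e-04; unpaired 0.854) and Peg10 (0.80; 0.00626; unpaired 0.946) were the Mll2 members called, both also without each single pair, where 7.2% of genes were called in pairs, 2.37% higher and 4.83% lower. The H19 average joined media of opposite sign, with paired values of 3.24 in 2i, 1.32 in FCS and -1.52 in EpiSC medium. That of Peg10 rested on 2i medium (2.33), against -0.02 in FCS and 0.09 in EpiSC medium.

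In the Setd1a line, 6 members rose and 1 fell over the media in pairs, where 26.0% of genes were called, 14.3% higher and 11.7% lower. Igf2, Igf2r, Dlk1 and Peg10 were higher in KO in 6 of 6 pairs, and Snrpn was lower in 6 of 6. The averages of H19 and Meg3 joined media of opposite sign, with paired values of -0.38 for H19 in EpiSC and -0.35 for Meg3 in FCS medium, which passed no test. Markers moved with these changes: in pairs 7 of 10 mesenchymal (median log2 fold change 1.22), 4 of 8 tested trophoblast and 3 of 9 tested primitive endoderm markers rose and 4 of 12 epiblast markers fell. Summed mesenchymal markers were 4351 and 201 CPM in KO EpiSC cultures, against 1236 and 173 CPM in WT, 35.2 and 29.3 CPM in KO 2i cultures, against 10.9 and 12.7 CPM in WT, and 60.9 and 273 CPM in KO FCS cultures, against 46.3 and 155 CPM in WT. Summed primitive endoderm markers were 3339 CPM in KO EpiSC culture 1, against 751 CPM in WT. Mitochondrial genes took 7.32% and 7.71% of counts in KO 2i cultures, against 4.11% and 3.43% in WT, and 6.27% and 3.89% in KO EpiSC cultures, against 3.42% and 1.98% in WT. The part of these values in the members' changes was not tested. Igf2r was 252 and 235 CPM in KO EpiSC cultures, against 166 and 166 CPM in WT, 384 and 356 CPM in KO 2i cultures, against 269 and 286 CPM in WT, and 263 and 332 CPM in KO FCS cultures, against 177 and 233 CPM in WT. Its groups did not overlap in any of the media, and it had 0.50 ± 0.15 in pairs (adjusted p = 0.0218) and 0.50 ± 0.17 without pairing (adjusted p = 0.0736). Snrpn fell by 0.50 (SE 0.11; adjusted p = 0.00234; unpaired 0.283) and held without each single pair. Paired values of the others were 0.96 for Igf2 (adjusted p = 0.00787; unpaired 0.444), 0.97 for Dlk1 (0.00778; unpaired 0.450), 0.69 for Peg10 (0.00559; unpaired 0.676), 0.55 for H19 (0.00504; unpaired 0.773) and 0.55 for Meg3 (0.0256; unpaired 0.867). H19 lost the call without 2i pair 2, Dlk1 without EpiSC pair 1, Peg10 without 2i pair 1 and Igf2 without 2i pair 2 or EpiSC pair 1. Meg3 kept it only without EpiSC pair 2 among the 6 pairs, and Igf2r lost it without each one. In single media the paired test called H19, Dlk1 (1.53; unpaired 0.716) and Peg10 (1.25; unpaired 0.803) in 2i medium, with Dlk1 at 3.94 and 4.51 CPM in KO, against 1.53 and 1.39 CPM in WT, and Meg3 (1.11; unpaired 0.931) in EpiSC medium, where 11.9% of genes were called (6.25% higher, 5.67% lower). In FCS medium no member was called, where 3.91% of genes were (1.35% higher, 2.56% lower). Pair 1 in 2i medium set a KO library of the later number run against a WT library of the earlier one. In that pair genotype and number run cannot be told apart. Without it the paired values in 2i medium were 0.71 for Peg10, 1.80 for H19 and 1.70 for Dlk1. Without 1 pair Peg10 in 2i medium and Meg3 were each called for 1 of 2 pairs left and Dlk1 for neither. Meg3 in EpiSC medium rested on pair 1, with 365 CPM in KO, against 95.6 CPM in WT, the Setd1a pair with the most mesenchymal and primitive endoderm markers in KO.

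In Bod1L KO cultures members were called only in pairs and only in single media. Over the media no member was called with or without pairing, and paired log2 fold changes ran from -0.45 for Peg3 (adjusted p = 0.0664) to 0.40 for Igf2 (adjusted p = 0.522), where 6.17% of genes were called in pairs (2.11% higher, 4.06% lower). Over the media no member had an unadjusted p below 0.05 without pairing, and 1 had with it. In single media the paired test called H19 in 2i medium, as above, and Peg3 in FCS medium, with 444 and 164 CPM in KO, against 637 and 484 CPM in WT (-1.04 ± 0.25; adjusted p = 0.0344; unpaired adjusted p = 1.00), which was called for 1 of 2 pairs left. There 1.66% of genes were called (0.311% higher, 1.35% lower), and in EpiSC medium, with no member called, 2.19% (0.557% higher, 1.63% lower). Paired effects differed between lines for Snrpn (adjusted p = 0.00819), Peg10 (0.0153), Peg3 (0.0170), H19 (0.0214) and Dlk1 (0.0318), 5 of 10 members, where 12.0% of genes were called. Without Mll2 2i pair 2 Dlk1 was no longer called (0.0560) and Igf2r was (0.00653), while the other 4 stayed called. Without pairing no member was called in that test (adjusted p from 0.449 up), where 2.03% of genes were called.

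Without pairing, edgeR called 8.85% of all genes for Setd1a KO over the media, 0.694% for Mll2 and 2.03% for Bod1L. Among the 59 other imprinted-domain genes it called 5 higher and 5 lower for Setd1a, none for Mll2 and 2 lower for Bod1L. Of the 59, 3 had an unadjusted p below 0.05 for Mll2. In Setd1a the called genes were led by Trappc9 (-1.74), Copg2 (-1.57), Zim1 (1.30) next to Peg3, and Mcts2 (-1.28). Begain (1.25), Mkrn3 (-0.55) and Osbpl1a (-0.59) of the members' domains were among them. In Bod1L they were Trappc9 (-1.30) and Copg2 (-1.20). In pairs the counts were 16 higher and 7 lower for Setd1a, 3 and 6 for Mll2, and 4 and 5 for Bod1L. Of all genes, 14.3% were higher and 11.7% lower in pairs for Setd1a. These shares were 2.37% and 4.83% for Mll2, and 2.11% and 4.06% for Bod1L. Paired values for Setd1a included Airn (1.73), Slc22a3 (2.23), Dio3 (1.43), Magel2 (0.96), Pon2 (0.77) and Atp10a (-0.75), and for Mll2 Slc22a3 (2.45), Igf2os (1.27), Atp10a (-0.99), Begain (-0.72), Ppp1r9a (-0.64) and Ndn (-0.52). For Bod1L they were Dio3 (1.15) and Osbpl1a (-0.32). Of the 18 regulators, Dppa3 (-1.54) and Uhrf1 (-0.65) fell in Setd1a KO cultures without pairing and none was called for Mll2 or Bod1L, where 1 and 0 had an unadjusted p below 0.05. In pairs 2 rose and 6 fell for Setd1a, 2 fell for Mll2 (Dppa3 by 2.66 and Dnmt3a by 0.54) and none was called for Bod1L.

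Over the 36 libraries Meg3, Rian and Snrpn were most like a gene of their own domain, and the other 7 members most like genes elsewhere. Among 12244 genes of at least 5 CPM, Meg3 was most like Rian (r = 0.99) and Gm27000 (0.98), and Rian most like Meg3 and Gm27000 (0.98), a gene annotated on the X chromosome (88759471 to 88760312). Snrpn was most like Snhg14 (0.92), the long RNA downstream of it in the same domain, and Enpp2 (0.92). Igf2 was most like Fyn (0.91) and Zeb2 (0.90), H19 like Nrk (0.82) and Kctd17 (0.80), and Dlk1 like Col6a2 and Dchs1 (0.86 each). Peg3 was most like Reep3 and Sox9 (0.88 each), Peg10 like Slc39a14 (0.82) and Arl6ip5 (0.80), Igf2r like Sdk2 (0.78) and Man2a2 (0.76), and Impact like Gm9855 (0.75) and Rian (0.74). Between members of one domain r was 0.72 for H19 and Igf2 and 0.45 for Meg3 and Dlk1, and some members of different domains were higher, with 0.85 for Igf2 and Peg3, 0.76 for H19 and Peg10 and 0.74 for Rian and Impact. These correlations describe libraries that share lines, media and normalization.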

How the data were processed

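Whole-number read counts per gene were deposited by the authors. Per the file headers they came from featureCounts 1.5.2 (strand setting 2, primary alignments, mapping quality of at least 1) and Ensembl release 87. GSNAP and GRCm38 (mm10) are named in the submitters' processing notes. Per the labels' protocols, poly(A) RNA depleted of rRNA was made into strand-specific single-end libraries. Reads shared by overlapping genes of one strand could not be assigned, which touches Snrpn and the targeted gene Setd1a. Spike-in lines (92, all at 0) were removed, and 345 genes had no symbol in the gene name table used.

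Counts were fitted with edgeR 4.0.16 in R 4.3.3 (quasi-likelihood F tests after TMM scaling; genes kept by filterByExpr at 10 counts) as 18 groups with 18 residual degrees of freedom. KO was compared with WT, and WT media and lines with each other. Replicate differences of KO and WT correlated in all 9 combinations (r = 0.36 to 0.87), so the numbers were taken as pairs, inferred from the data, and a fit with the 18 pairs as a block (9 residual degrees of freedom) was also made. WT differences correlated across media in the Setd1a line (r = 0.22 to 0.42) but not in Bod1L (-0.15 to 0.0016), with Mll2 between (0.054 to 0.13), and WT media and lines were compared without a block, with it as an alternative. Other fits used RLE factors, DESeq2 1.42.0, no filter, WT libraries alone and leaving out each library (with the dispersion trend of the full fit) or pair. On simulated counts for 22249 genes, the KO average of Bod1L recovered 51% of changes of 1 and 98% of changes of 2 on the log2 scale. For 1 medium, on 22197 genes, these were 4% and 63%. They are shares of 100 changed genes of each size and not of the members. H19, Igf2, Meg3, Rian, Dlk1 and Peg10 had SDs between cultures of 1.48 to 1.70, against a median of 0.33 over genes. The simulated shares do not describe members of such spread. The members and lists were chosen with earlier results of these data known. All members are described, with the 4 largest called genes of each other list, the list genes in the members' domains, and the 2 genes most like each member.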

Additional observations from a re-analysis of the deposited data

Results flagged for a closer look

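Each member was checked for a library far from the other 5 in the 6 KO and the 6 WT libraries of each medium, 60 checks in all, of which chance flags about 1 in 20. Igf2 in Mll2 KO 2i culture 1 (132 CPM) stood above the other KO 2i libraries. Igf2r in Mll2 WT 2i culture 2 (79.6 CPM), the library whose Kmt2b goes against its label, stood below the other WT 2i libraries. Mll2 WT FCS culture 1 stood below the other WT FCS libraries in Peg3 (166 CPM) and Snrpn (44.9 CPM).

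The WT medium effect on Igf2r differed between lines (adjusted p = 8.61e-04). In the comparison of same-numbered pairs, KO effects differed between media in the Mll2 line for H19 (adjusted p = 6.62e-06), Igf2 (0.00215) and Peg10 (0.00940; 0.0857 without 2i pair 2). KO effects in pairs differed between lines for Snrpn (0.00819), Peg10 (0.0153), Peg3 (0.0170), H19 (0.0214) and Dlk1 (0.0318; 0.0560 without Mll2 2i pair 2).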

How the results depend on the processing

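Of the counts of called members, none moved by over 1.5 times with RLE size factors. With no filter on low counts, KO against WT gave 4 called members for Setd1a and 3 for Mll2 over the media, 3 (Setd1a), 4 (Mll2) and 2 (Bod1L) in 2i medium, 1 for Mll2 in FCS medium and 2 for Mll2 in EpiSC medium. WT media without the filter gave, for Setd1a, Mll2 and Bod1L in turn, 8, 9 and 9 (EpiSC against 2i), 5, 6 and 8 (EpiSC against FCS) and 6, 6 and 6 (2i against FCS), and WT lines gave 6 (Setd1a against Bod1L), 8 (Mll2 against Bod1L) and 5 (Setd1a against Mll2). DESeq2 called 1 member for Setd1a KO over the media, 3 for EpiSC against FCS in Bod1L WT, 4 for 2i against FCS in Setd1a WT and 4 for Setd1a against Bod1L. A fit of the 18 WT libraries alone gave 2 for EpiSC against FCS in Bod1L, 0 for 2i against FCS in Mll2 and 0 for Setd1a against Bod1L. The share of all genes called is not given for these fits, nor for the WT block and the fits without 1 library or pair. Their counts can thus not be read as particular to the members. The cause of these shifts was not tested.

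With the replicate block that pairs KO with WT, called members were 7 (Setd1a) and 2 (Mll2) over the media, 3, 4 and 1 in 2i medium for Setd1a, Mll2 and Bod1L, 1 for Mll2 and 1 for Bod1L in FCS medium, and 1 for Setd1a and 2 for Mll2 in EpiSC medium. Its tests of differing effects gave 3 members between media in the Mll2 line and 5 between lines, and 2 and 5 without Mll2 2i pair 2. Without 1 pair the block gave 3 to 6 (Setd1a), 2 to 5 (Mll2) and 0 to 1 (Bod1L) over the media, 1 (Setd1a) and 3 to 5 (Mll2) in 2i medium, 0 to 1 for Bod1L in FCS medium, and 0 to 1 for Setd1a and for Mll2 in EpiSC medium. WT replicate differences correlated across media with r from 0.22 to 0.42 in Setd1a and from -0.15 to 0.13 in the other lines, and ran from -0.24 to 0.19 across lines. With the WT numbers as a block, EpiSC against FCS gave 3 members over lines and 2 in Bod1L, 2i against FCS 0 in Setd1a, and Setd1a against Bod1L 1. That 1 member was neither Igf2r nor Impact, which lost their calls there. Impact also lost its call for Mll2 against Bod1L, and Peg3 for 2i against FCS in Bod1L (adjusted p = 0.115).

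Without 1 library, called members were 6 to 9 (EpiSC against 2i), 3 to 6 (EpiSC against FCS) and 4 in each case (2i against FCS) over WT lines. In single lines they were 0 to 2 (Setd1a), 0 to 5 (Mll2) and 4 to 5 (Bod1L) for EpiSC against 2i, 0 (Setd1a), 0 to 2 (Mll2) and 1 to 2 (Bod1L) for EpiSC against FCS, and 0 (Setd1a), 0 to 1 (Mll2) and 0 to 2 (Bod1L) for 2i against FCS. Lines gave 0 to 3 (Setd1a against Bod1L) and 2 to 4 (Mll2 against Bod1L). Unpaired KO counts stayed at 0 except for 0 to 1 in Setd1a over the media and in Mll2 2i cultures. With 2 cultures per group, log2 differences of about 1 in H19, Igf2, Meg3, Rian, Dlk1 and Peg10 were within the unpaired error.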
